A study of Mus musculus with 12 samples.

Results

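Genes commonly used to mark pericytes and smooth muscle cells, 9 in all, were followed in mouse angiosarcoma tumors: Acta2, Tagln, Cnn1, Myh11, Mylk, Lmod1, Rgs5, Cspg4 and Mcam. They were found by gene name among the 54232 genes of the count table, and all 9 names matched a single identifier. The tumors were grown from SVR cells, an endothelial line of mouse origin transformed with SV40 large T antigen and activated H-ras, implanted in nude mice, which lack T cells. The tumors carry the strain label C57BL/6, and by the age in the study's methods the mice were young adults. Mice received by daily oral gavage either vehicle (control), trametinib at 1 mg/kg, a MEK inhibitor, cediranib at 3 mg/kg, an inhibitor of the VEGF receptors that also acts on KIT and on PDGF receptors, or both drugs at those doses (combination), with 3 tumors per group. By the labels treatment ran until a tumor ulcerated or outgrew a set size. The methods also describe an experiment that ended on a fixed day, and neither source says which of the experiments gave these tumors. Time on treatment may therefore differ between them.

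Pericytes and vascular smooth muscle cells, together called mural cells, wrap the endothelial tubes of blood vessels. Endothelial cells recruit them by secreting PDGF-B, which acts on the receptor Pdgfrb on the mural cell, and Notch3 signaling helps them mature. Smooth muscle cells hold a contractile apparatus whose genes are switched on by serum response factor (Srf) with its cofactor myocardin (Myocd) or the related MRTF proteins, while partners of another kind, the ternary complex factors downstream of ERK, direct Srf to growth genes such as Egr2. Several of these markers are shared with other cells. Acta2 and Tagln are also made by activated fibroblasts (myofibroblasts), and Mcam (CD146) is also found on endothelial cells.

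Whole tumors were lysed, RNA was captured with exome probes, and reads were counted per gene. Libraries held 9478865 to 11666094 counts. Values below are CPM, the share of a library's counts after its total was scaled by TMM. A tumor without a count for a gene could still hold up to 3 counts of it, which is 0.251 to 0.349 CPM in these libraries and covers counting error only. Tumor cells, stroma and adjoining tissue were all of mouse origin, so fewer mural cells and less RNA per mural cell cannot be told apart. Differences were tested with edgeR's quasi-likelihood test over the 12897 genes that passed a filter on low counts, and a gene was called at an FDR under 0.05 with a log2 fold change of at least 1.5 in size. Of the 9 genes, 7 passed that filter, and Cnn1 and Lmod1 did not. Nothing in the labels says whether the 3 tumors of a group were handled independently, so the tests measure the spread between these tumors.

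The label of mural cells was checked against other genes of that kind. The result was mixed. Of 21 other smooth muscle contractile genes 17 passed the filter, and their levels ran widely. At the low end were Pln, Kcnmb1 and Ppp1r14a, at 0, 0.00355 and 0.0940 CPM per kb of gene length averaged over the tumors, and the cofactor Myocd, at 0 to 1.31 CPM. The smooth muscle actin Actg2 averaged 2.75, the myosin light chain Myl9 7.57 and Smtn 17.9 CPM per kb, above 44.8%, 66.1% and 81.8% of the genes tested. Of 15 other pericyte genes 11 passed the filter, and Vtn, Higd1b, Kcnj8 and Cox4i2 did not, with averages of 0.00415 to 0.180 CPM per kb. Pdgfrb averaged 3.27, Angpt1 4.57, Cd248 5.52, Notch3 5.76 and Ndufa4l2 7.56 CPM per kb, above 48.6% to 66.1% of the genes tested. Libraries stood apart by adjoining tissue as well. The summed level of 14 skeletal muscle markers was 20388 CPM in control 2 and 31194 in trametinib 2, against 12.9 to 2370 in the other 10 libraries.

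The 9 genes differed widely in level. Averaged over the 12 tumors, Acta2 stood at 95.0 CPM per kb, above 96.3% of the genes tested. Next came Mylk at 3.59, Tagln at 3.28, Mcam at 1.52, Rgs5 at 1.33 and Myh11 at 0.560 CPM per kb. Cspg4 at 0.116, Cnn1 at 0.0630 and Lmod1 at 0.0376 lay among the lowest genes, above 1.27% of the genes tested or fewer. Below Acta2, each gene overlapped its neighbour in this order when the 12 tumors were compared: Mylk ran from 2.07 to 5.26 CPM per kb and Tagln from 0.965 to 13.2. Acta2 alone made up 30.7% to 93.4% of the summed CPM of the 9 genes in a tumor. Probe capture also shapes levels between genes, so the order holds for these libraries only.

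Close relatives used outside smooth muscle were higher on average. Actb and Actg1, the cytoplasmic actins, averaged 19217 and 1423 CPM per kb. The relatives of calponin 1, Cnn2 and Cnn3, averaged 43.4 and 35.9 CPM per kb against 0.0630 for Cnn1, and Tagln2 averaged 156 against 3.28 for Tagln. Of the myosin heavy chains, the nonmuscle Myh9 and Myh10 averaged 449 and 33.0 CPM per kb against 0.560 for the smooth muscle Myh11. Acta2 was likewise below both cytoplasmic actins, at 9.43 to 533 CPM per kb.

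**Figure D1:**
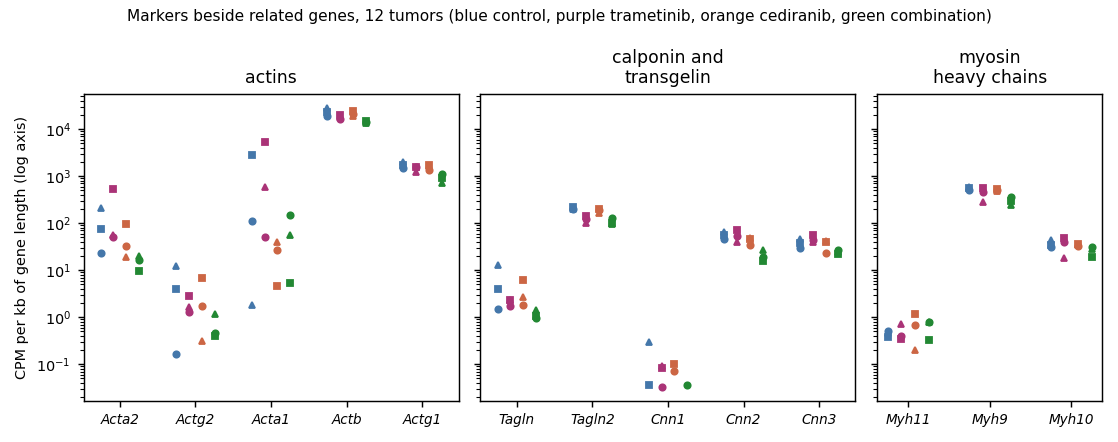
Level of smooth muscle markers and of related genes in each of the 12 tumors, as CPM per kb of gene length on a log axis, with 1 point per tumor (circle, square and triangle for replicates 1, 2 and 3) and color for the treatment. Myh11, Tagln and Cnn1 lie far below their nonmuscle relatives, with means of 0.560, 3.28 and 0.0630 CPM per kb, and the 4 tumors in which Cnn1 had a count of 0 are not drawn.

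Acta2 encodes smooth muscle alpha-actin, the main thin filament protein of contractile mural cells and of myofibroblasts (ENSMUSG00000035783, GRCm38 chr19:34241090-34255336, minus strand). A pair of stretches of its promoter are shown because Srf acts through CArG boxes, and the other Srf-linked genes are described further on. In the 250 bases before the RefSeq start of Acta2 (GRCm38.p6) there was no exact CArG box and there were 2 CArG-like matches, 1 base off the consensus, marked in capitals.

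Acta2, 84 to 75 bases before the start, chr19:34255433-34255472, minus strand: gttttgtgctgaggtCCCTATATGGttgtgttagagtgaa
Acta2, 34 to 25 bases before the start, chr19:34255383-34255422, minus strand: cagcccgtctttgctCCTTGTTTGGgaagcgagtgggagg

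An exact CArG box, searched on both strands, occurred in 1.47% of 32851 RefSeq promoters over the same length, and a CArG box or CArG-like match in 8.59%. Promoters of 7 of the 9 genes were in that table. Acta2 was the only one of the 7 with either kind of match in this window, which says nothing about the factor's binding elsewhere. Tagln and Myh11 were not matched.

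Acta2 read 41.4, 132 and 379 CPM in the 3 control tumors. After trametinib it read 91.0, 949 and 97.7 CPM, and after cediranib 57.2, 169 and 33.3 CPM. The combination tumors read 28.7, 16.8 and 36.4 CPM. All 3 combination tumors lay below every control and every trametinib tumor, and they overlapped the cediranib tumors, of which the third read 33.3 CPM. The other groups overlapped one another, with the highest tumor 9.16 times the lowest among controls and 10.4 times among trametinib tumors. Against control the combination stood at a log2 fold change of -2.76 (SE 1.01). With an FDR of 0.105 in edgeR's quasi-likelihood test Acta2 was not called. In 3 of 14 alternatives it was called, with an FDR down to 0.0341 where the low-count filter was kept. The lowest FDR with single tumors left out was 0.0621. Against trametinib the combination stood at -3.79 (SE 1.06, FDR 0.0941), and against cediranib at -1.66 (SE 0.98, FDR 0.342). Trametinib alone stood at 1.04 against control (SE 0.95, FDR 0.608) and cediranib alone at -1.09 (SE 0.95, FDR 0.999).

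A few tumors set these values. Without trametinib 2, the comparison of trametinib with control turned to -0.96 (FDR 0.587), and the difference of combination from trametinib shrank to -1.79. Without control 3, the difference of combination from control was -1.67. Trametinib 2 was also the tumor highest in skeletal muscle markers. Control 3, the next in Acta2, had the lowest skeletal muscle sum of all at 12.9 CPM. Whether adjoining muscle had a part in the Acta2 values was not tested. Reads of Acta1, the skeletal muscle actin, were at 2.83 CPM in control 3 and 8312 CPM in trametinib 2. Of 2146 words of 50 bases in the Acta2 transcripts, 7 (0.326%) occurred in other genes, namely Actg1 and pseudogenes, and none of these genes was Acta1.

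**Figure D2:**
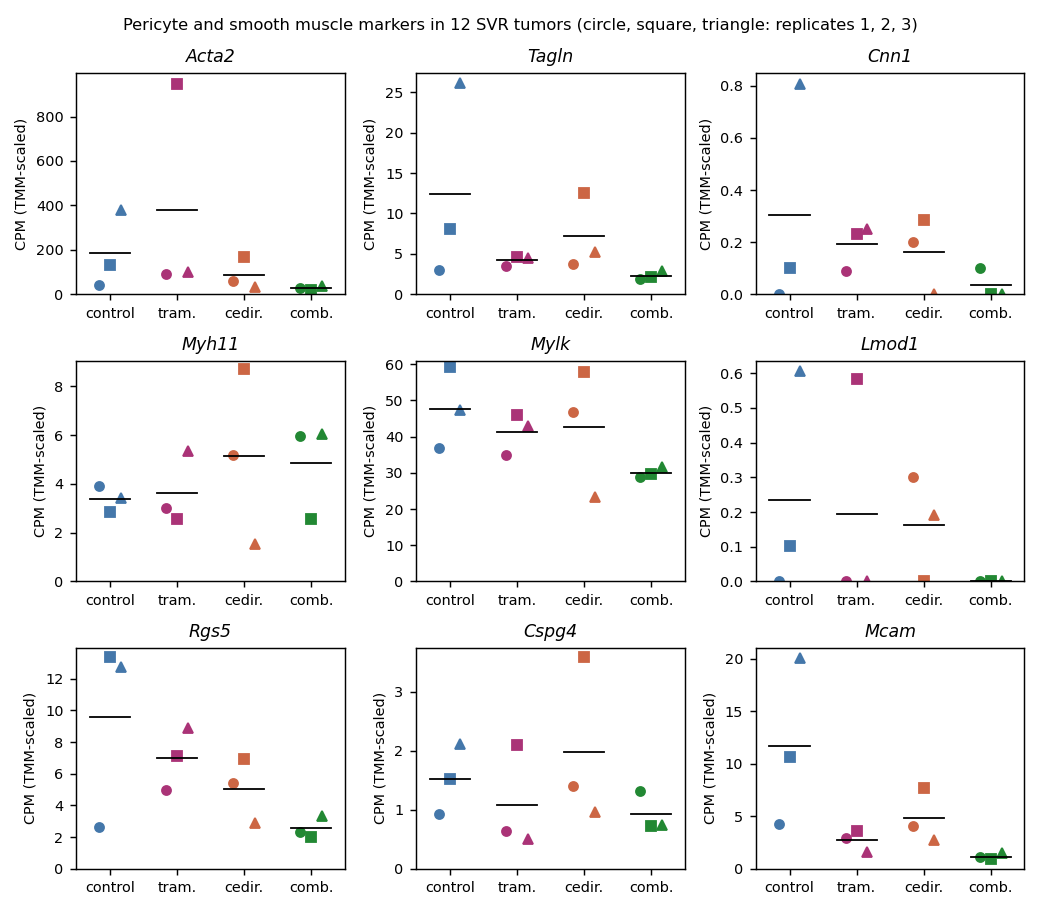
CPM (linear axes from 0, TMM-scaled) of each of the 9 genes in each tumor, with the group mean as a line and replicates 1, 2 and 3 as circle, square and triangle. The combination tumors are the tightest group for Acta2, at 16.8 to 36.4 CPM, and for Mcam, at 0.908 to 1.49 CPM, while the 4 groups overlap for Myh11 and Cnn1 and Lmod1 sit at a few counts.

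Tagln encodes transgelin (SM22-alpha), an actin-binding protein that is an early marker of the smooth muscle lineage (ENSMUSG00000032085, chr9:45929619-45935873, minus strand). It read 2.98, 8.11 and 26.2 CPM in control tumors and 1.92, 2.09 and 2.88 CPM in combination tumors. After trametinib the values were 3.45, 4.66 and 4.52 CPM, and after cediranib 3.70, 12.6 and 5.26 CPM. Every combination tumor lay below every tumor of the other 3 groups, although the gap to the lowest control was small. Tagln was lower in the combination than in control by 2.42 on the log2 scale, a 5.37-fold difference that was called (SE 0.68, FDR 0.0424). It was not called against trametinib (-0.87, SE 0.68, FDR 0.539), against cediranib (-1.64, SE 0.67, FDR 0.165) or for trametinib against control (-1.56, SE 0.64, FDR 0.192).

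The Tagln call rested on few tumors and was lost in 7 of the 14 alternatives tried. Control 3 held 259 of the 374 control counts, and without it the combination stood at -1.26 against control (FDR 0.209). The call was also lost without control 2 (-2.66, FDR 0.0636) and without combination 1, 2 or 3 (FDR 0.121, 0.119 and 0.0924). An antisense gene, Gm48529, overlaps 62.4% of the Tagln exon bases, and its counts equalled those of Tagln in 11 of 12 libraries, with 803 counts in all against 804. The values given for Tagln therefore cannot be told apart from those of Gm48529.

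Cnn1 (calponin 1), Lmod1 (leiomodin 1, which nucleates actin filaments in smooth muscle) and Myh11 (the smooth muscle myosin heavy chain) are the markers that most closely define a differentiated contractile cell. Cnn1 (ENSMUSG00000001349, chr9:22099216-22109630, plus strand) had 21 counts over the 12 tumors, with 0, 1 and 8 in control, 1, 2 and 3 after trametinib, 2, 3 and 0 after cediranib and 1, 0 and 0 in the combination. Lmod1 (ENSMUSG00000048096, chr1:135324807-135368065, plus strand) had 17 counts, with 0, 1 and 6 in control, 0, 5 and 0 after trametinib, 3, 0 and 2 after cediranib and 0 in each combination tumor. Most of these libraries were at or under 3 counts, so a difference between groups was not detectable at this depth, and no fold is given.

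Myh11 (ENSMUSG00000018830, chr16:14194535-14291372, minus strand) was measured at 1.53 to 8.70 CPM. It read 3.92, 2.84 and 3.43 CPM in control, 3.00, 2.56 and 5.36 after trametinib, 5.20, 8.70 and 1.53 after cediranib and 5.96, 2.54 and 6.03 in the combination. All 4 groups overlapped, and the combination held both high and low tumors. The combination stood at 0.51 against control (SE 0.53, FDR 0.579), at 0.40 against trametinib (SE 0.52, FDR 0.738) and at -0.09 against cediranib (SE 0.52, FDR 0.940). Missing the threshold does not show that Myh11 was alike in the groups.

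Mylk, myosin light chain kinase, starts contraction by phosphorylating the regulatory light chain, and its long form is widely made in endothelium (ENSMUSG00000022836, chr16:34745210-35002420, plus strand). Its highest tumor was 2.54 times its lowest, the smallest such ratio of the 7 tested genes, with 36.7, 59.2 and 47.3 CPM in control and 35.0, 46.0 and 43.0 after trametinib. The cediranib tumors read 46.9, 57.8 and 23.3 CPM, and the combination 28.9, 29.7 and 31.7 CPM. Combination tumors lay below all control and all trametinib tumors but within the range after cediranib. The difference from control was -0.67 (SE 0.27, FDR 0.142), and against trametinib it was -0.46 (SE 0.27, FDR 0.411). Both missed the call. The antisense genes E130310I04Rik and Gm21691 overlap 4.87% and 1.99% of the Mylk exon bases. They had 664 and 1056 counts in all against 5056 for Mylk, and whether reads were shared was not tested.

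Rgs5, a regulator of G-protein signaling that is abundant in pericytes and known to be raised in tumor vessels, was read at 2.64, 13.4 and 12.7 CPM in control (ENSMUSG00000026678, chr1:169655501-169695813, plus strand). It read 4.99, 7.10 and 8.87 CPM after trametinib, 5.40, 6.90 and 2.87 after cediranib and 2.32, 2.00 and 3.34 in the combination. Control 1 lay inside the combination range and the other 2 controls lay well above it, so these groups overlapped, whereas all combination tumors were below all trametinib tumors. Rgs5 was lower in the combination than in control by 1.90 on the log2 scale (3.72-fold, SE 0.53, FDR 0.0433) and was called. The call was lost without control 2 (-1.58, FDR 0.135), without control 3 (-1.64, FDR 0.142) and without combination 1, 2 or 3 (FDR 0.119, 0.129 and 0.0781). It was also lost with library totals in place of TMM (FDR 0.0508) and with only the 2 groups in the fit (FDR 0.0745). Against trametinib the difference was -1.45 (SE 0.53, FDR 0.183), and trametinib against control stood at -0.45 (SE 0.50, FDR 0.688).

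Cspg4, the NG2 proteoglycan of pericytes (ENSMUSG00000032911, chr9:56865033-56899870, plus strand), was near the limit of the depth, with 6 to 38 counts per tumor. It read 0.937, 1.52 and 2.12 CPM in control, 0.636, 2.09 and 0.502 after trametinib, 1.40, 3.59 and 0.957 after cediranib and 1.31, 0.726 and 0.743 in the combination. The groups overlapped throughout. The combination stood at -0.71 against control (SE 0.64, FDR 0.516) and at -1.10 against cediranib (SE 0.64, FDR 0.332).

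Mcam, the adhesion molecule CD146 of endothelial cells and pericytes, gave the largest called difference of the 9 genes (ENSMUSG00000032135, chr9:44134469-44142727, plus strand). Control tumors read 4.26, 10.6 and 20.1 CPM and trametinib tumors 2.91, 3.61 and 1.59 CPM. After cediranib it read 4.10, 7.66 and 2.78 CPM, and in the combination 1.11, 0.908 and 1.49 CPM. Each combination tumor lay below each tumor of the other 3 groups, and trametinib tumors lay below controls. Mcam was 9.87-fold lower in the combination than in control (log2 fold change -3.30, SE 0.58, FDR 0.00670). This call held in all 14 alternatives tried, with values of -3.71 to -2.66 when single tumors were left out. After trametinib alone it was 4.34-fold lower than in control (log2 fold change -2.12, SE 0.54, FDR 0.0385), a call that was lost without control 2 (-2.18, FDR 0.0749), without control 3 (-1.47, FDR 0.161) and without trametinib 1, 2 or 3 (FDR 0.105, 0.0698 and 0.135). Combination against cediranib was just outside the threshold (-2.04, SE 0.58, FDR 0.0524), and combination against trametinib was not called (-1.19, SE 0.60, FDR 0.323).

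Across the 7 tested genes, the call rates can be set beside those of all genes. For trametinib against control 1 of 7, Mcam, was called lower, where 1.43% of all genes tested were called lower. It was also the 1 of 7 whose trametinib tumors all lay below the controls, as 12.9% of all genes did. In the comparison of combination with control 3 of 7 were called lower (Tagln, Rgs5 and Mcam) against 1.71% of all genes, and 0 were called higher against 1.91%. In 4 of 7 (Acta2, Tagln, Mcam and Mylk) the combination tumors all lay below the controls, a pattern held by 15.7% of all genes tested. The median log2 fold change of the 7 genes was -1.90 here, against 0.00155 over all genes tested. Without control 2 and trametinib 2, the tumors high in skeletal muscle markers, 1 of the 7 (Mcam) was still called for combination against control and 0 for trametinib against control, with log2 fold changes for Mcam of -3.36 and -2.43. That leave-out was chosen after the data were seen.

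The single agents and the combination were also compared with each other. Cediranib against control gave 0 calls among the 7 genes and 0% among all genes by edgeR's quasi-likelihood test, where 1 of the 7 (Mcam, -1.26, SE 0.51) and 557 genes in all (4.32%) had an unadjusted p under 0.05, and DESeq2 and edgeR's likelihood ratio test called 0 of the 7. Combination against trametinib gave 0 of 7 and 0.675% of all genes. In edgeR's quasi-likelihood test 2 of the 7 (Acta2 and Rgs5) had an unadjusted p under 0.05, beside 17.9% of all genes. DESeq2 and the likelihood ratio test each called 1 of the 7 there, Acta2. In 5 of 7 (Acta2, Tagln, Rgs5, Mcam and Mylk) every combination tumor lay below every trametinib tumor, against 11.8% of all genes. Combination against cediranib gave 0 of 7 and 2.45% of all genes. By edgeR's quasi-likelihood test 2 of the 7 (Tagln and Mcam) had an unadjusted p under 0.05, beside 23.1% of all genes. DESeq2 and the likelihood ratio test each called 1, Mcam. In 2 of 7, Tagln and Mcam, the combination tumors lay wholly below the cediranib tumors, beside 14.3% of all genes. Trametinib against cediranib gave 0 of 7 beside 3.49% of all genes, and 0 of the 7 by DESeq2 and the likelihood ratio test. At an unadjusted p under 0.05 in edgeR's quasi-likelihood test there were 0 of the 7, beside 24.7% of all genes.

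Whether cediranib acted differently with and without trametinib was tested as an interaction. It gave 0 calls among the 7 genes and 0% of all genes, with 0 of the 7 and 909 genes in all (7.05%) at an unadjusted p under 0.05, and 0 of the 7 by DESeq2 and the likelihood ratio test. Acta2 had the largest value of the 7, at -2.70 (SE 1.36, FDR 0.726), and it was -0.70 without trametinib 2. For Mcam it was 0.07 (SE 0.86, FDR 0.990). The several comparisons share control or combination tumors and are not independent of one another.

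**Figure D3:**
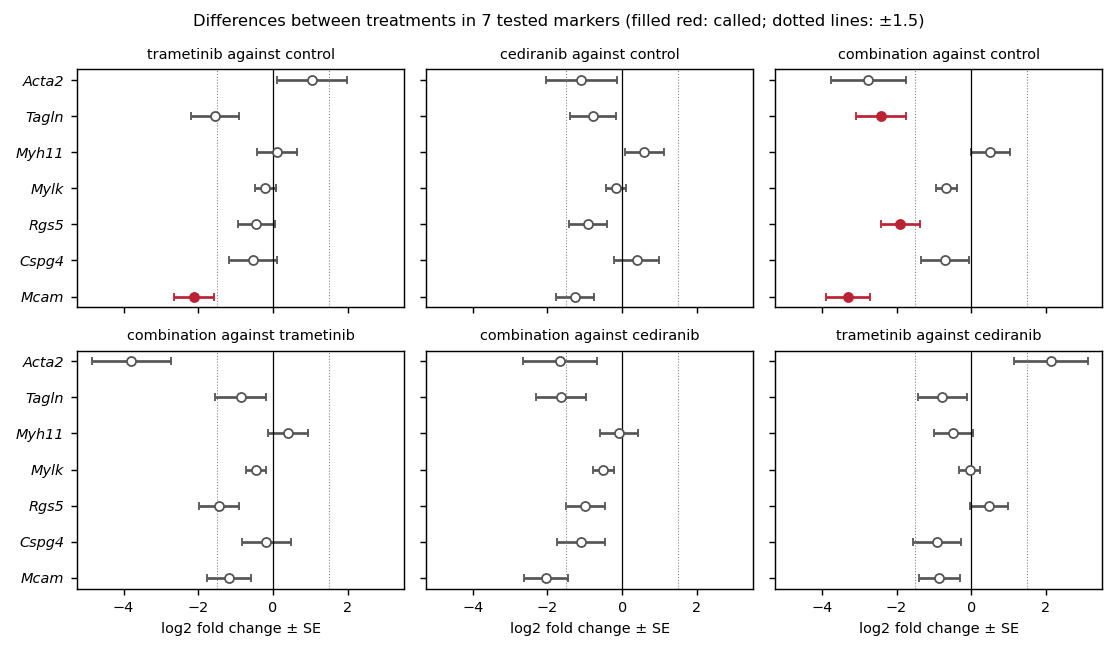
Log2 fold change with its standard error for the 7 tested genes in 6 comparisons, from edgeR's quasi-likelihood fit, where filled red points passed both the FDR and the fold threshold and dotted lines mark 1.5 in either direction. Tagln, Rgs5 and Mcam are called for combination against control and Mcam for trametinib against control, while Acta2 has the widest errors.

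How alike the tested genes were across the 12 tumors is described by Pearson's r of log2 CPM. These tumors share groups and library scaling, so the values are descriptions. Of the 21 pairs, Tagln and Mcam had the highest r, at 0.89, followed by Rgs5 and Mylk at 0.83. Myh11 had the lowest values, with r between -0.04 and 0.37 to each of the other 6 genes. Among 9310 protein coding genes with a mean of at least 1 on the log2 CPM scale, those most like Acta2 were Itm2a (0.96), the collagen genes Col5a2 and Col1a2 (both 0.95), the matrix proteoglycan Bgn (0.94) and Lox, which crosslinks collagen (0.94). After the group means were removed these 5 values were 0.89 to 0.97.

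Rgs5 was most like Igfbp7 (0.94), a secreted protein of the vessel wall, and Lmo2 (0.93), a transcriptional partner in blood and endothelial cells, followed by Necap2, Sparcl1 and Bicc1 (0.91, 0.91 and 0.90). Myh11 had looser neighbours, Vav2, Lipe, Eefsec, Nr1h3 and Lmnb2, at 0.74 to 0.82. Mcam had an r of 0.93 with Cdh5, the VE-cadherin of endothelial junctions, against 0.62 with Col1a2, and Acta2 had 0.95 with Col1a2 and 0.47 with Cdh5. With the skeletal muscle actin Acta1, Acta2 had 0.30 and Mcam -0.13.

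**Figure D4:**
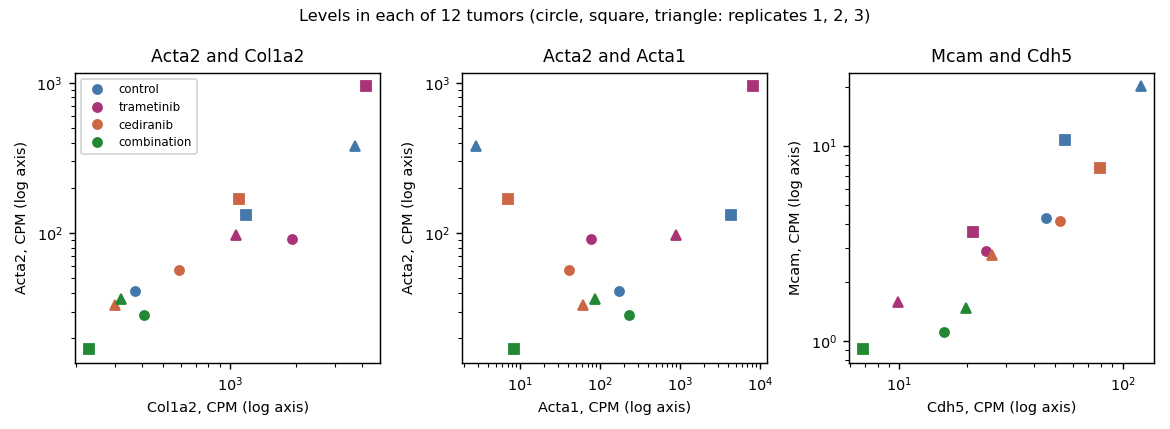
CPM of pairs of genes in each of the 12 tumors on log axes, with color for the treatment and circle, square and triangle for replicates 1, 2 and 3. Acta2 rises with the collagen gene Col1a2 from tumor to tumor, and Mcam rises with the endothelial gene Cdh5. Pearson's r on the log2 scale is 0.95 for Acta2 with Col1a2 and 0.93 for Mcam with Cdh5. For Acta2 with the skeletal muscle actin Acta1 it is 0.30.

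Of 15 other pericyte genes, 11 were tested. For trametinib against control 0 were called, and 1 had an unadjusted p under 0.05 in edgeR's quasi-likelihood test, beside 20.7% of all genes. For combination against control 4 were called lower and 2 higher, beside 1.71% and 1.91% of all genes. Those called lower were Pdgfrb, the PDGF-B receptor (-1.67, SE 0.44, FDR 0.0351), Abcc9, a subunit of the pericyte potassium channel (-3.36, SE 0.73, FDR 0.0158), Heyl, a Notch target (-3.36, SE 0.93, FDR 0.0416), and Rgs4, a relative of Rgs5. Abcc9 and Heyl had only 8 and 12 counts in all over the 3 combination tumors, so the size of their folds is uncertain. Pdgfrb read 17.5, 25.3 and 36.1 CPM in control and 7.98, 6.81 and 9.93 in the combination, without overlap. Rgs4 read 1.11, 2.84 and 5.46 CPM in control and 0, 0 and 0.0928 in the combination, where it had 1 count in all, and no fold is given for it.

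The 2 called higher were Notch3, the Notch receptor of mural cells, and Angpt1, the mural ligand of the endothelial receptor Tie2. Notch3 read 19.5, 27.9 and 26.3 CPM in control and 78.0, 43.3 and 157 in the combination (1.92, SE 0.38, FDR 0.0110). Angpt1 read 13.5, 9.93 and 4.65 CPM in control and 52.8, 80.6 and 40.5 in the combination (2.62, SE 0.62, FDR 0.0222). Pericyte genes therefore moved both ways, and the median log2 fold change of the 11 was -0.56. Des, the intermediate filament gene of pericytes that skeletal muscle also makes, was highest in the muscle-rich tumors, at 274 CPM in control 2 and 858 CPM in trametinib 2, and for combination against control it stood at -1.72 (SE 1.17, FDR 0.375).

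Other smooth muscle contractile genes numbered 21. Of these 17 were tested. For combination against control 6 were lower at an unadjusted p under 0.05 in edgeR's quasi-likelihood test, beside 13.8% of all genes. In that comparison 0 were called lower and 1 higher, Pgm5 (FDR 0.0476), a cytoskeletal protein of muscle. It was also the 1 gene of this list called for trametinib against control (FDR 0.0225). Pgm5 read 0.170, 0.101 and 0.101 CPM in control, under 3 counts in each library, against 1.54, 5.47 and 0.419 after trametinib and 1.21, 1.09 and 1.86 in the combination, and no fold is given for it. Actg2, the enteric smooth muscle actin, read 0.255, 6.08 and 18.8 CPM in control and 0.707, 0.635 and 1.86 in the combination (-2.95, SE 1.18, FDR 0.132). Myl9, the regulatory light chain that Mylk phosphorylates, stood at -2.27 (SE 0.78, FDR 0.0868). For both genes the control and combination tumors overlapped. Smtn (smoothelin) stood at 0.06 (SE 0.18, FDR 0.861), and the median of the 17 was -0.39.

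Among the regulators of the contractile program, 21 of 22 were tested. For combination against control 2 were called higher and 1 lower, beside 1.91% and 1.71% of all genes. The 2 were Notch3 and Klf4, a factor that opposes the contractile genes, at 30.5, 12.7 and 15.9 CPM in control against 60.5, 65.5 and 92.3 in the combination (1.88, SE 0.32, FDR 0.00591). Klf4 was also called for trametinib against control (1.93, SE 0.32, FDR 0.00400) and was the 1 regulator called there. Pdgfb, the ligand that recruits mural cells, was called lower for combination against control, at 5.54, 11.3 and 12.1 CPM in control and 1.52, 1.18 and 2.04 in the combination (-2.60, SE 0.37, FDR 0.00237). For trametinib alone it passed the FDR but not the fold threshold (-1.33, SE 0.34, FDR 0.0407). Srf itself likewise passed the FDR only, with 181, 197 and 226 CPM in control and 133, 128 and 123 in the combination (-0.65, SE 0.14, FDR 0.0128).

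Srf-linked genes outside the smooth muscle program were counted in both branches. Of 19 cytoskeletal targets of Srf and MRTF, 3 were called lower for combination against control, beside 1.71% of all genes. These were Ankrd1 (-1.81, SE 0.24, FDR 0.00155), Ctgf (-3.42, SE 0.87, FDR 0.0296) and Cyr61 (-1.66, SE 0.45, FDR 0.0394). In the same comparison 8 of the 19 passed the FDR alone, all lower, beside 5.13% of all genes. Actb was among these 8 at -0.71 (SE 0.14, FDR 0.0112) and Cnn2 at -1.43 (SE 0.24, FDR 0.00523). For trametinib against control 0 of the 19 were called. At an unadjusted p under 0.05 in edgeR's quasi-likelihood test 5 were lower and 1 higher. Of all genes 20.7% were under that p, 10.5% of all genes being lower. Of 10 immediate early targets of the ERK-linked branch, 3 were called lower for trametinib against control, beside 1.43% of all genes. For combination against control it was also 3, beside 1.71%. Egr2 was called in both, at -3.42 (SE 0.42, FDR 0.000778) for trametinib and at -2.41 (SE 0.40, FDR 0.00537) for the combination.

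Markers of other cell types also differed between the tumors, and their part in the results was not tested. Of 13 endothelial markers 11 were tested. For trametinib against control 5 were called lower, beside 1.43% of all genes. For combination against control 6 were called lower, beside 1.71%. All 11 had a negative log2 fold change there, as did 49.9% of all genes. The summed level of the 13 was 258 to 520 CPM in control, 116 to 175 after trametinib, 160 to 403 after cediranib and 81.7 to 146 in the combination. SVR cells are endothelial, so the tumor cells and the vessels that mural cells cover cannot be told apart in these sums. Mcam ranged with them, at 11.7 ± 7.97 CPM (SD, n = 3) in control against 2.70 ± 1.02 after trametinib and 1.17 ± 0.293 in the combination.

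Fibroblast markers were summed in the same way. The sum of 14 markers, 11 of them tested, was 2412 to 21612 CPM in control, 8944 to 37418 after trametinib, 1949 to 7067 after cediranib and 3256 to 6048 in the combination. Trametinib 2 and control 3, the 2 tumors highest in Acta2, also had the 2 highest fibroblast sums, at 37418 and 21612 CPM. For combination against control 1 of the 11 was called higher and 0 lower, beside 1.91% and 1.71% of all genes. The median log2 fold change was -0.75. The keratinocyte sum over 13 markers ran from 3030 to 4501 CPM in the combination and from 4.19 to 10.4 after trametinib, with 22.7 to 638 in control and 45.0 to 2909 after cediranib. The macrophage sum over 10 markers was 401 to 699 CPM in control and 178 to 315 in the combination. Skeletal muscle markers, 14 of 14 tested, gave 0 calls for combination against control, and the tumors high in them are named above. At an unadjusted p under 0.05 in edgeR's quasi-likelihood test 8 of the 14 were lower, beside 13.8% of all genes.

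**Figure D5:**
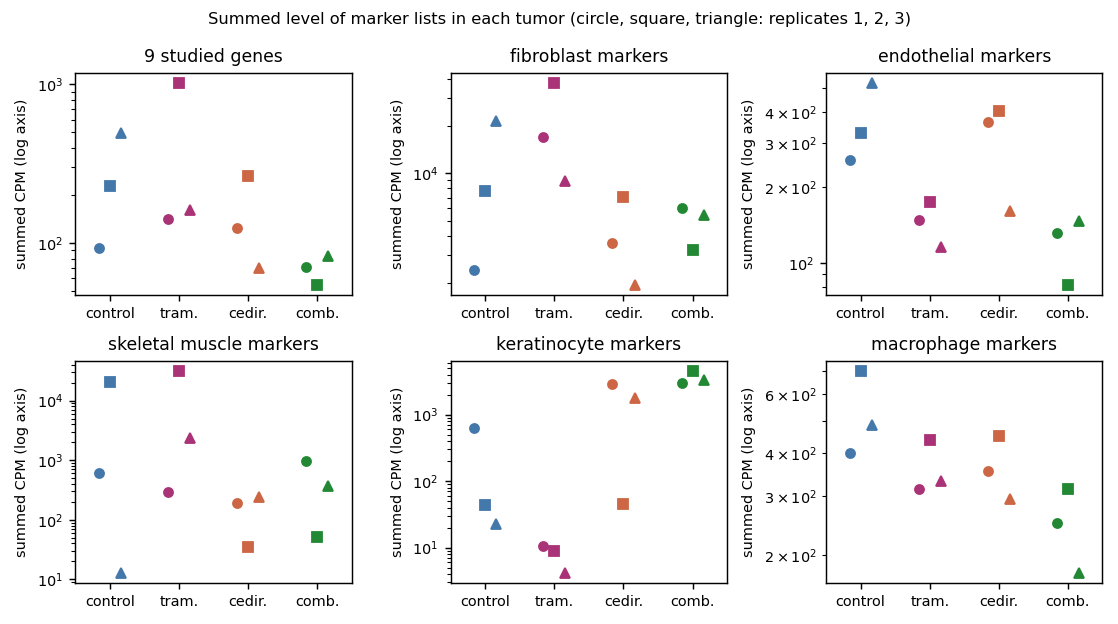
Summed CPM of the 9 studied genes and of 5 lists of marker genes for other cell types in each tumor, on log axes that differ between panels, with color for treatment and circle, square and triangle for replicates 1, 2 and 3. The sum of the 9 genes runs from 54.7 to 82.5 CPM in the combination and from 92.8 to 492 CPM in control, and its 2 highest tumors, trametinib 2 and control 3, are also the highest for fibroblast markers.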

How the data were processed

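RNA of 12 SVR tumors, 3 per treatment, was extracted from frozen tissue and sequenced after exome capture. Per the labels the authors called bases with bcl2fastq 1.8.4, aligned reads to GRCm38 with STAR 2.7.1a and counted them with featureCounts 1.6.0. The deposited values were raw counts per gene, without normalization. The authors' table also gives a gene length (another unit, in bases), used for levels per kb. Which annotation release was used, whether strand was taken into account and how multimapping reads were treated were not given in the sources used here. Genes that overlap can therefore share reads.

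Counts were tested by quasi-likelihood in edgeR 4.0.16 (R 4.3.3), with TMM, filterByExpr (minimum count 10, minimum total 15) and all 12 libraries in 1 fit. FDR is Benjamini-Hochberg over the 12897 genes tested. The SE was derived from the log2 fold change and the F statistic. Log2 CPM used a prior count of 2. Scripts were tested on simulated data. Alternatives were DESeq2 1.42.0, a likelihood ratio test, other scalings, no filter, only the groups compared, a replicate block and leaving out single tumors. The 9 genes and the lists were chosen with earlier results of these data known. The naming rule took all 9 genes, listed defining markers, the called list genes with the 2 smallest FDR per direction and comparison, and the 5 genes most like Acta2, Rgs5 and Myh11. Abcc9, Rgs4, Heyl, Angpt1, Pln, Kcnmb1, Ppp1r14a, Vtn, Higd1b, Kcnj8, Cox4i2, Cd248, Ndufa4l2, Ctgf, Cyr61, Smtn and the nonmuscle relatives were named after their values were seen. Sequences and promoters came from RefSeq (GRCm38.p6), overlaps and shared words from GENCODE M21. Coordinates are those of the table (GRCm38).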

Additional observations from a re-analysis of the deposited data

How the results depend on the processing

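The number of the 7 genes called depended on the settings. For combination against control it was 3, and 1 to 3 when single tumors were left out. It was 1 without both tumors high in skeletal muscle markers, and 4 without the low-count filter. Acta2 gained a call in 3 of 14 alternatives, and its lowest FDR with the filter kept was 0.0341. Tagln lost its call in 7 of the 14 and Rgs5 in 9. For trametinib against control the number called was 1, and 0 to 1 with single tumors left out. It was 0 without the muscle-rich tumors, 0 with only the groups compared, 0 with the replicate block and 2 with no filter. Combination against cediranib went from 0 to 3 with no filter and to 1 with DESeq2, the likelihood ratio test or only the groups compared. Combination against trametinib went from 0 to 1 with no filter, DESeq2 and the likelihood ratio test. With no filter the interaction and trametinib against cediranib each went from 0 to 1 (Acta2), and the cause was not tested.

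Of 713 recomputed log2 fold changes, 636 kept direction and side of the threshold, 24 lost a call, 15 gained one and 38 changed sign. Sign changes came in 14 of 49 results. With single tumors left out, cediranib against control ran from -0.37 to 0.70 for Cspg4, -0.0214 to 1.02 for Myh11, -0.44 to 0.12 for Mylk and -1.46 to 0.38 for Tagln. Likewise combination against cediranib ran from -0.51 to 0.52 for Myh11 and combination against trametinib from -0.52 to 0.69 for Cspg4. The interaction ran from -0.89 to 0.30 for Cspg4, -0.58 to 0.57 for Mcam, -0.61 to 0.42 for Myh11 and -1.25 to 0.59 for Tagln. Trametinib against cediranib ran from -0.92 to 0.13 for Myh11 and -0.34 to 0.24 for Mylk, and trametinib against control from -0.96 to 2.12 for Acta2 and -0.30 to 0.30 for Myh11. Without both muscle-rich tumors, Mylk was 0.0200 for cediranib against control, Cspg4 0.69 for combination against trametinib, Acta2 -1.15 for trametinib against control, and in the interaction Cspg4 was 0.31 and Tagln 0.22. With library totals alone, Myh11 was 0.0469 for combination against cediranib and Tagln 0.0290 in the interaction.

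With the replicate block, Cspg4 was 0.0049 for combination against trametinib, and the calls of Mcam for trametinib against control (-2.02, FDR 0.0677) and Rgs5 for combination against control (-1.76, FDR 0.0605) were lost. Replicate numbers did not pair the tumors: 3 of 18 same-numbered pairs correlated above 0.1 (r from -0.22 to 0.36), and 4 of 12 tumors correlated best with their own number. With 3 tumors per group and counts of 0 to 8 for Cnn1 and Lmod1, depth limits both.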
